A study of Homo sapiens with 8 samples.

Results

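VTP50469 is a small molecule that blocks the binding of Menin to KMT2A. The comparison described here is that of VTP50469 alone with the solvent control DMSO in MOLM-13, an established cell line of human acute myeloid leukemia in which KMT2A is fused to AF9. Its members were chosen by column label: the 2 libraries labelled VTP50469 and the 2 labelled DMSO, of 8 libraries in all, with all genes of the table. The other 4 libraries are 2 from cells given the KAT6A inhibitor WM119 (written WM1119 in the study's text) and 2 from cells given VTP50469 and WM119 together. All 8 are labelled as wild type, so no engineered allele separates the groups. No source used here states the dose or the length of treatment, or that libraries of 1 group are from separate cultures, so every p-value below measures only the spread between these libraries, which may be technical. MOLM-13 is 1 cell line, and in bulk RNA fewer cells of a type and less RNA per cell cannot be told apart.

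Menin is an adaptor that holds KMT2A, and the fusion proteins made from it, on chromatin at a limited set of genes. Among these are the HOXA cluster and its cofactors MEIS1 and PBX3, which keep blasts in an immature, self-renewing state. Inhibitors of the Menin pocket are known for lowering such genes and for releasing granulocytic and monocytic maturation in cells with a KMT2A rearrangement. Granulocytic maturation brings the primary granule proteins of promyelocytes and then the later granule proteins of neutrophils. Monocytic maturation, a separate branch, brings monocyte receptors and the phagocyte oxidase.

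The 4 libraries hold 18092906 and 20557041 expected counts (DMSO replicates 1 and 2) and 19798626 and 22612711 (VTP50469 replicates 1 and 2), which makes 1 count worth 0.0439 to 0.0541 CPM (the count scaled by library size and TMM factor, which is the unit of all levels below). Pearson's r of log2(CPM + 1) within a pair was 0.9973 for DMSO and 0.9972 for VTP50469, against 0.9949 for WM119 and 0.9746 for the combination. Between 14142 and 14336 genes had counts in the 4 libraries, against 12972 in combination replicate 2. Longer genes read lower in VTP50469 replicate 2 and not in replicate 1: Spearman's rho of the log2 difference from DMSO with exonic length was -0.194 and 0.0212 across 12012 genes, which are not independent replicates.

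VTP50469 alone raised 19 genes and lowered 2 when the spread was estimated from all 8 libraries with edgeR's quasi-likelihood test (adjusted p, Benjamini-Hochberg, under 0.05). That is 0.153% and 0.0161% of the 12401 genes tested, and at an unadjusted p under 0.05 the counts were 475 higher and 362 lower. When the same test was fitted to the 4 VTP50469 and DMSO libraries only, 715 genes were called higher and 617 lower, or 5.98% and 5.16% of 11959 genes, among them all 21 of the first fit. The fits differ in the spread they use: the common dispersion was 0.0457 over 8 libraries and 0.00461 over 4. Of the 4-library calls, 139 were over 2-fold higher and 136 over 2-fold lower, and the median called log2 change was 0.49 upward and -0.53 downward. In what follows "rose" and "fell" are kept for the 21 genes of the first fit, and "called" with the 4-library fit is said of every gene that passed there, those 21 included. The first fit is fragile, since it called 0 genes when any 1 DMSO, VTP50469 or WM119 library was left out, with a lowest adjusted p of 0.0625 among the 21 genes (without WM119 replicate 1). With both combination libraries left out, edgeR called 251 genes higher and 164 lower, the 21 included. Counts of list members given below for fits with 1 library left out are not comparable with 5.98% and 5.16%. They stand beside the all-gene counts of the same fits, which moved too. Leaving out VTP50469 replicate 1 from the 4-library fit gave 1264 higher and 1286 lower, and leaving out DMSO replicate 1 gave 369 and 272.

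**Figure D1:**
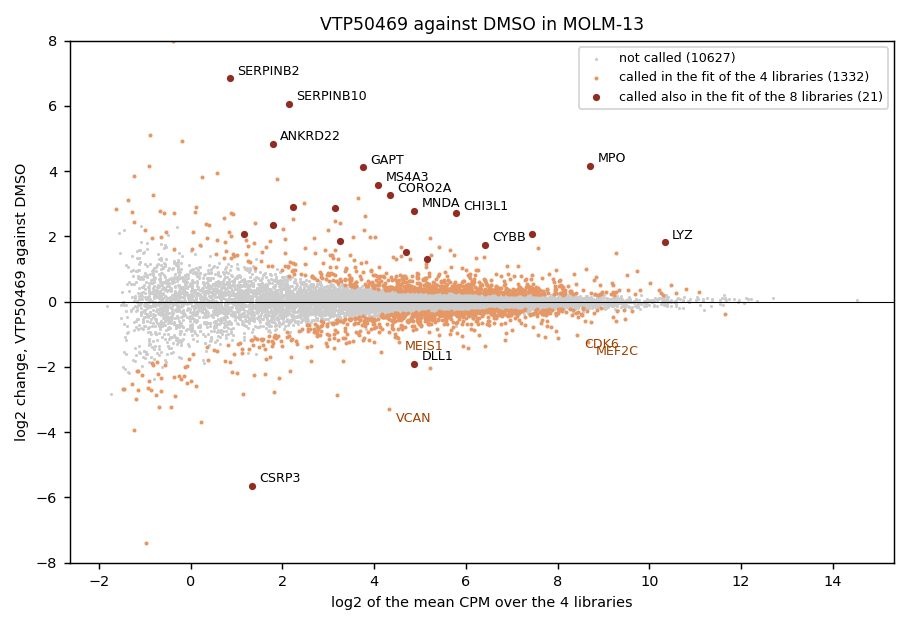
Each point is 1 of the 11959 genes tested in the 4 libraries; the x axis is the log2 of its mean CPM and the y axis its log2 change, VTP50469 against DMSO, with 2 genes beyond the limits of 8. The 21 genes called in both fits lie far from 0, MPO and LYZ among them, while MEF2C and CDK6 were called lower in the 4-library fit only.

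MEN1, which encodes Menin, read 79.6 and 81.0 CPM in DMSO and 89.5 and 82.3 CPM with VTP50469 (log2 0.10 ± 0.07 SE, 4-library fit, edgeR adjusted p = 0.439). Of 20 tested members of the Menin and KMT2A complexes, 0 were called higher and 3 (15.0%) lower in the 4-library fit, beside 5.16% of all genes. Without DMSO replicate 1 there was 1 lower, and without VTP50469 replicate 1 there were 6. The 3 were AFF1, KMT2A and MLLT10, of which AFF1 and MLLT10 are parts of the elongation and DOT1L complexes that KMT2A fusions recruit. KMT2A had 62.7 and 50.7 CPM in DMSO against 40.9 and 34.2 CPM (log2 -0.59 ± 0.12 SE, 4-library edgeR adjusted p = 0.0112). With WM119 alone KMT2A read 26.6 and 51.5 CPM. None of the 20 was called in the 8-library fit, where AFF1, KMT2A and MLLT10 each had an edgeR adjusted p of 0.999. Reads of KMT2A may come from the intact gene or from the fusion, which the counts do not separate. DOT1L, the H3K79 methyltransferase, read 166, 169, 159 and 150 CPM in the order DMSO 1, DMSO 2, VTP50469 1, VTP50469 2, and KAT6A, the target of WM119, read 200, 165, 159 and 129 CPM. MLLT3, the gene whose product is AF9, read 11.2, 9.77, 10.6 and 11.6 CPM, so its groups overlapped. None of these 3 was called in either fit, with 4-library edgeR adjusted p of 0.321, 0.0731 and 0.739.

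Known targets of the KMT2A fusion were mostly lower with VTP50469. Of 25 tested members of the list of Menin-KMT2A fusion targets, 15 (60.0%) were called lower and 1 higher in the 4-library fit, where the background is 5.16% and 5.98%. Both VTP50469 libraries lay below both DMSO libraries for 22 of the 25, as against 27.6% of all genes tested, and the median log2 change was -0.53 beside -0.004 for all genes of the 8-library fit. None of the 25 was called in the 8-library fit, where the lowest adjusted p of the list was 0.165 (RUNX2). The other 3 of the 28 members, PROM1 among them, had 0 counts in all 4 libraries.

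MEIS1, the homeobox cofactor of HOXA9, had 32.8 and 28.9 CPM in DMSO and 14.1 and 14.9 CPM with VTP50469 (log2 -1.08 ± 0.10 SE, 4-library edgeR adjusted p = 0.000131). Its partner PBX3 went from 94.3 and 86.5 to 60.0 and 59.4 CPM (log2 -0.59 ± 0.08 SE). MEF2C, a transcription factor of leukemic stem cells, gave the largest log2 difference of the list, -1.25 ± 0.09 SE, from 579 and 569 to 267 and 216 CPM. For these 3 genes the groups are well apart and the replicates of each group are close.

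CDK6, the kinase partner of the D cyclins, read 474 and 449 CPM in DMSO and 246 and 208 CPM with VTP50469 (log2 -1.02 ± 0.08 SE, 4-library edgeR adjusted p = 3.9e-05). FLT3, the receptor tyrosine kinase, read 253, 232, 174 and 151 CPM (log2 -0.57 ± 0.08 SE). RUNX2 read 66.2, 68.6, 35.6 and 31.5 CPM (log2 -1.0 ± 0.09 SE). For these 3 genes too the groups did not overlap. ADCY9, JMJD1C and SENP6, named here after their values were seen, had log2 differences of -1.17, -0.90 and -0.76 in the 4-library fit.

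The HOXA genes named here had smaller log2 differences than MEIS1 (-1.08), while that of HOXA11 lay near that of PBX3 (-0.59). HOXA9 had 66.2 and 66.3 CPM in DMSO and 55.6 and 57.6 CPM with VTP50469 (log2 -0.22 ± 0.08 SE, 4-library edgeR adjusted p = 0.0971). HOXA10 read 38.1, 41.6, 37.8 and 36.0 CPM (log2 -0.11 ± 0.09 SE) and HOXA7 read 13.2, 17.5, 12.8 and 10.9 CPM (log2 -0.37 ± 0.16 SE). Neither was called in either fit, while both VTP50469 libraries of all 3 genes were below both DMSO libraries. HOXA11 was the called member of the cluster, with 18.5, 19.1, 13.4 and 12.7 CPM (log2 -0.52 ± 0.11 SE, 4-library edgeR adjusted p = 0.0156). Antisense and neighbouring transcripts overlap 62.5% of the exonic bases of HOXA7 and 27.2% of HOXA11 on the other strand, and the counting is not stated to use strand, so reads of these 2 genes are uncertain. The same holds in part for HOXA9 (13.9%) and HOXA10 (16.4%).

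MYC, BCL2 and MYB, which are often grouped with the fusion targets, were not called. MYC read 472 and 502 CPM in DMSO and 466 and 449 CPM with VTP50469 (log2 -0.09 ± 0.06 SE). BCL2, the survival factor, read 163, 147, 140 and 125 CPM (log2 -0.22 ± 0.08 SE, 4-library edgeR adjusted p = 0.103). MYB read 332, 334, 328 and 341 CPM, with overlapping groups. LMO2, named after its values were seen, was the member called higher, with 64.6, 67.5, 85.1 and 88.2 CPM (log2 0.40 ± 0.07 SE).

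Because VTP50469 replicate 2 read long genes lower, the fusion targets were also counted with an offset for transcript length. It gave 16 called lower, in a fit that called 858 of 11616 genes lower, beside 617 of 11959 without the offset. What part length has in these calls was not tested.

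**Figure D2:**
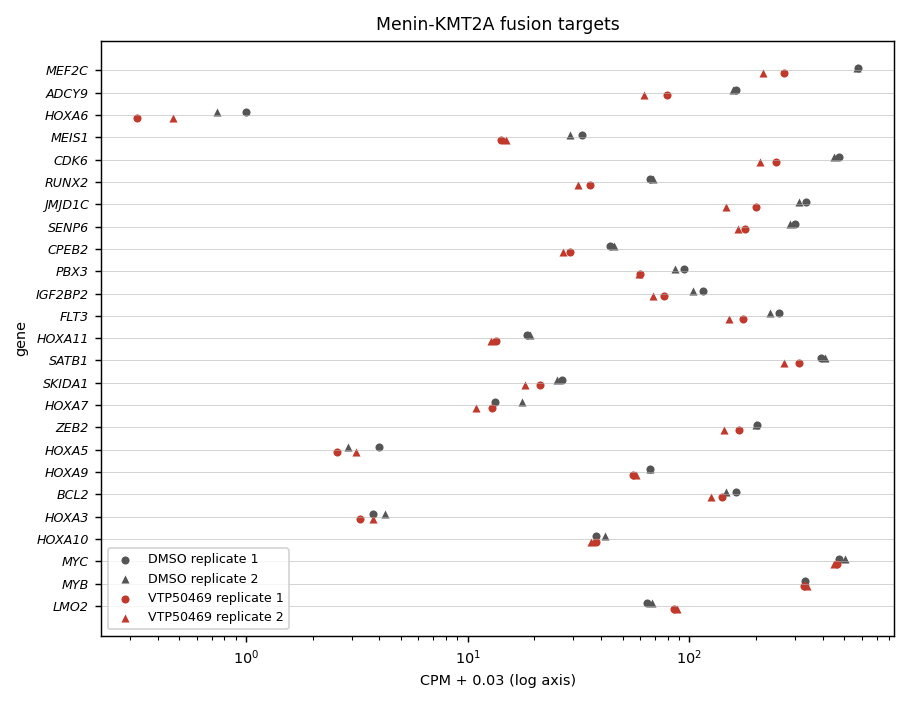
CPM (x axis, log scale, with 0.03 added) of the 25 tested fusion targets (y axis) in each of the 4 libraries, ordered by log2 change; circles are replicate 1 and triangles replicate 2. MEF2C, MEIS1 and CDK6 are shifted to lower values in both VTP50469 libraries, HOXA10, MYC and MYB are close together in the 4 libraries, and LMO2 lies to the right.

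Primary granule genes were higher with VTP50469 in all 17 tested members of the list, and 4 of them rose. MPO, the peroxidase of azurophil granules, had 48.6 and 39.98 CPM in DMSO and 689 and 897 CPM with VTP50469, a log2 change of 4.16 ± 0.28 SE in the 8-library fit (edgeR adjusted p = 0.0113). LYZ, the bacteriolytic enzyme lysozyme, rose from 541 and 598 to 1780 and 2230 CPM (log2 1.82 ± 0.19 SE, edgeR adjusted p = 0.0284). MS4A3, found on the membrane of progenitors of granulocytes and monocytes, rose from 1.73 and 3.41 to 26.7 and 36.1 CPM (log2 3.59 ± 0.38 SE, edgeR adjusted p = 0.0284). In each case the lower VTP50469 library lay far above the higher DMSO library. The GENCODE gene of MPO is on chromosome 17 at 58269855 to 58280935, minus strand, and that of LYZ on chromosome 12 at 69348381 to 69354234, plus strand (hg38). A transcript on the other strand overlaps 34.7% of the exonic bases of LYZ.

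Of 17 tested members of the primary granule list, 4 rose in the 8-library fit (MPO, LYZ, MS4A3 and SERPINB10) and 15 (88.2%) were called higher in the 4-library fit, with 0 lower. All 17 had both VTP50469 libraries above both DMSO libraries, as had 27.3% of all genes tested, and their median log2 change was 1.34. The neutrophil serine proteases were among them. ELANE, neutrophil elastase, read 324, 356, 541 and 597 CPM (log2 0.75 ± 0.07 SE, 4-library edgeR adjusted p = 0.00012, 8-library 0.854). PRTN3, proteinase 3, named after its values were seen, read 298, 349, 836 and 971 CPM (log2 1.49 ± 0.09 SE). CTSG, cathepsin G, also named afterwards, read 41.1, 43.6, 91.0 and 124 CPM (log2 1.35 ± 0.13 SE). The log2 differences of these proteases were smaller than that of MPO. BPI, a protein that binds bacterial lipopolysaccharide, had 2 counts in the DMSO libraries and 75 with VTP50469, a count ratio of 34.4 with a 95% counting interval of 9.19 to 289. The 2 tested members that were not called were CTSC, the protease that activates the granule proteases, and PRG2.

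Later granule genes were also higher. The list has 31 members, of which 12 had 0 counts in all 4 libraries. Of 9 members tested in the 4-library fit, 8 were called higher and 0 lower, beside 5.98% and 5.16% of all genes. The count filter can keep a gene through the libraries of 1 group alone, so genes low in DMSO could enter because they were higher elsewhere. Without that filter 9 of 19 members were called higher and 0 lower, where 1023 of 15681 genes were called higher. In the 8-library fit 14 were tested, and 12 of them had both VTP50469 libraries above both DMSO libraries, as had 27.3% of all genes. CHI3L1, a chitinase-like protein of specific granules, rose from 12.9 and 16.2 to 79.6 and 111 CPM (log2 2.71 ± 0.26 SE, 8-library edgeR adjusted p = 0.0263). CSF3R, the receptor for the granulocyte growth factor G-CSF, went from 17.6 and 23.4 to 52.3 and 58.2 CPM (log2 1.43 ± 0.13 SE, 4-library fit). S100A8 and S100A9, the calprotectin subunits, had low counts, with 0.379, 0.569, 1.72 and 3.91 CPM and with 1.35, 2.13, 4.17 and 9.0 CPM. Both were called higher in the 4-library fit (edgeR adjusted p = 0.00945 and 0.0101) and neither in the 8-library fit (0.53 and 0.613). Of the most mature markers in this list, S100A12, CAMP, FCGR3B and PADI4 had 0 to 2 counts in the DMSO libraries together and 2, 13, 1 and 1 with VTP50469, and CXCR1 and ARG1 had 0 in all 4 libraries.

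**Figure D3:**
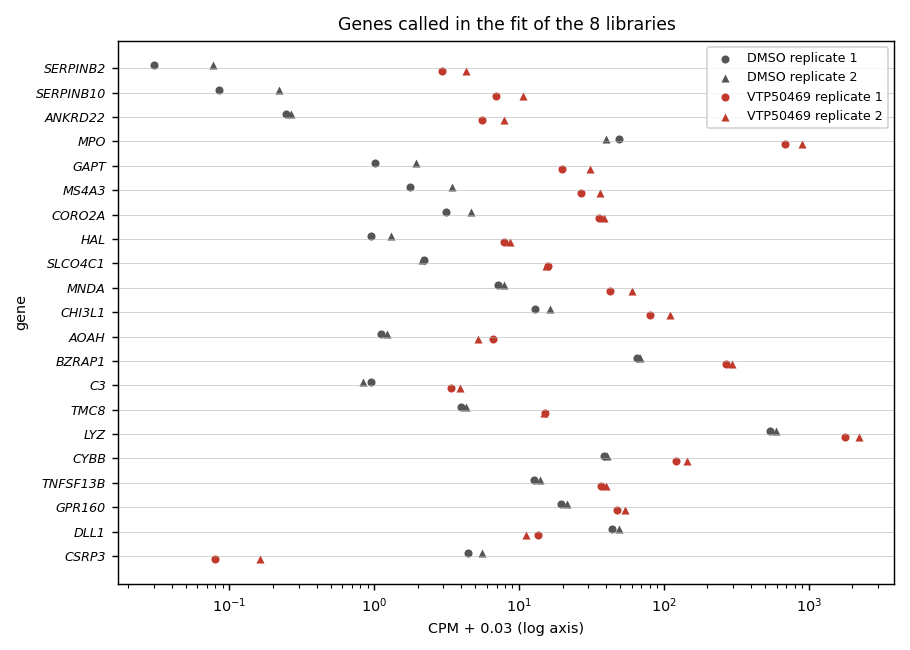
CPM (x axis, log scale, with 0.03 added) of the 21 genes called in the 8-library fit (y axis), with circles for replicate 1 and triangles for replicate 2. For the 19 higher genes both VTP50469 libraries lie to the right of both DMSO libraries, and for DLL1 and CSRP3 to the left.

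Monocyte and macrophage genes were mixed. Of 37 members tested in the 4-library fit, 15 (40.5%) were called higher and 4 (10.8%) lower, beside 5.98% and 5.16% of all genes. In the 8-library fit 2 rose. CYBB, the catalytic subunit of the phagocyte NADPH oxidase, rose from 38.6 and 40.4 to 121 and 144 CPM (log2 1.75 ± 0.20 SE, edgeR adjusted p = 0.0352). MNDA, a nuclear antigen of myeloid cells, rose from 7.09 and 7.87 to 42.6 and 59.9 CPM (log2 2.77 ± 0.29 SE, edgeR adjusted p = 0.0284). CSF1R, the receptor for the macrophage growth factor M-CSF, read 4.33, 4.65, 10.7 and 9.75 CPM (log2 1.19 ± 0.17 SE, 4-library edgeR adjusted p = 0.00169). The receptors of bacterial products TLR4, TLR2 and TLR8, named after their values were seen except TLR8, were all called higher in the 4-library fit, TLR4 from 15.6 and 15.4 to 57.6 and 60.9 CPM.

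The monocyte list also held the clearest opposite change. VCAN, the matrix proteoglycan versican, which classical monocytes express, read 40.5 and 32.0 CPM in DMSO and 4.32 and 3.03 CPM with VTP50469 (log2 -3.30 ± 0.18 SE, 4-library edgeR adjusted p = 4.6e-06, 8-library 0.16). CCR1, CTSL and MS4A7, of which CCR1 is a chemokine receptor and CTSL a lysosomal protease, were the other 3 called lower. CD14, the co-receptor for lipopolysaccharide and a standard marker of mature monocytes, had 9 counts in DMSO and 12 with VTP50469. ITGAM, which encodes CD11b, read 1.68, 1.57, 3.83 and 2.81 CPM (log2 1.03 ± 0.31 SE, 4-library edgeR adjusted p = 0.0608) and was not called. CD163 and FCN1, further monocyte and macrophage markers, had 0 counts in all 4 libraries.

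The other genes that rose have roles in innate immunity or are less well known in this lineage. AOAH, which inactivates lipopolysaccharide, rose from 1.08 and 1.19 to 6.57 and 5.14 CPM (log2 2.36 ± 0.24 SE, 8-library fit). C3, the central complement component, rose from 0.92 and 0.806 to 3.33 and 3.87 CPM (log2 2.06 ± 0.22 SE). TNFSF13B, the B cell survival cytokine BAFF, rose from 12.6 and 13.9 to 36.6 and 39.9 CPM (log2 1.53 ± 0.16 SE). For these 3 genes the replicates of each group lay close together and the groups did not overlap.

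HAL, histidine ammonia-lyase, rose from 0.92 and 1.28 to 7.85 and 8.65 CPM (log2 2.89 ± 0.24 SE, 8-library fit). CORO2A, a coronin that binds actin, rose from 3.08 and 4.60 to 35.5 and 38.4 CPM (log2 3.26 ± 0.22 SE). GAPT, a membrane adaptor that binds GRB2, rose from 0.974 and 1.90 to 19.9 and 31.0 CPM (log2 4.13 ± 0.36 SE). Levels with VTP50469 were again well clear of DMSO in every case. SLCO4C1, an organic anion transporter, rose from 2.16 and 2.09 to 15.9 and 15.2 CPM, and ANKRD22 from 0.216 and 0.237 to 5.54 and 7.82 CPM. BZRAP1 (now TSPOAP1), TMC8 and GPR160 rose by log2 2.08, 1.86 and 1.31.

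A pair of serpins went from near silence to clear detection. SERPINB2, an inhibitor of plasminogen activators, had 1 count in the DMSO libraries together and 156 with VTP50469, a count ratio of 143 with a 95% counting interval of 25.3 to 5680. SERPINB10, its neighbour on chromosome 18, read 0.0541, 0.19, 6.92 and 10.6 CPM, or 5 counts against 383. An unnamed transcript overlaps 20% and 13.6% of their exonic bases on the same strand, so part of the reads of each could be shared with it. Of 8 serpins tested in the 4-library fit, 4 were called higher and 2 lower, but 0 were called lower without either DMSO library or with DESeq2, and 1 without VTP50469 replicate 1. SERPINF1, an inhibitor of blood vessel growth, was one of those 2, with 3.73, 4.41, 1.91 and 1.71 CPM. The 4-library shares over all genes were 5.98% higher and 5.16% lower.

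Only 2 genes fell in the 8-library fit. DLL1, a ligand of Notch receptors, fell from 43.7 and 48.7 to 13.5 and 11.2 CPM (log2 -1.90 ± 0.18 SE, edgeR adjusted p = 0.0243). CSRP3, known as a muscle LIM protein, fell from 4.38 and 5.50 to 0.049 and 0.132 CPM, or from 197 counts to 4 (log2 -5.66 ± 0.52 SE, edgeR adjusted p = 0.0303). FAM120B overlaps 9.7% of the exonic bases of DLL1 on the other strand. With at least 10 counts required in every library CSRP3, SERPINB2, SERPINB10 and ANKRD22 are not tested, and the other 17 of the 21 genes were called.

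The 21 genes can be read again in libraries that the comparison did not use, the combination against WM119 alone. All 19 genes that rose lay higher in both combination libraries than in both WM119 libraries, and both genes that fell lay lower, where 19.0% and 20.1% of all tested genes were so separated upward and downward. MPO, for example, read 99.7 and 106 CPM with WM119 and 1420 and 2210 CPM with both compounds. DLL1 read 34.5 and 32.5 CPM with WM119 and 7.76 and 6.20 CPM with both. Of the 4-library calls, 558 of 715 (78.0%) were higher and 426 of 617 (69.0%) lower in both combination libraries. The WM119 and combination libraries enter the 8-library fit through its spread, while the 4-library calls did not use them.

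**Figure D4:**
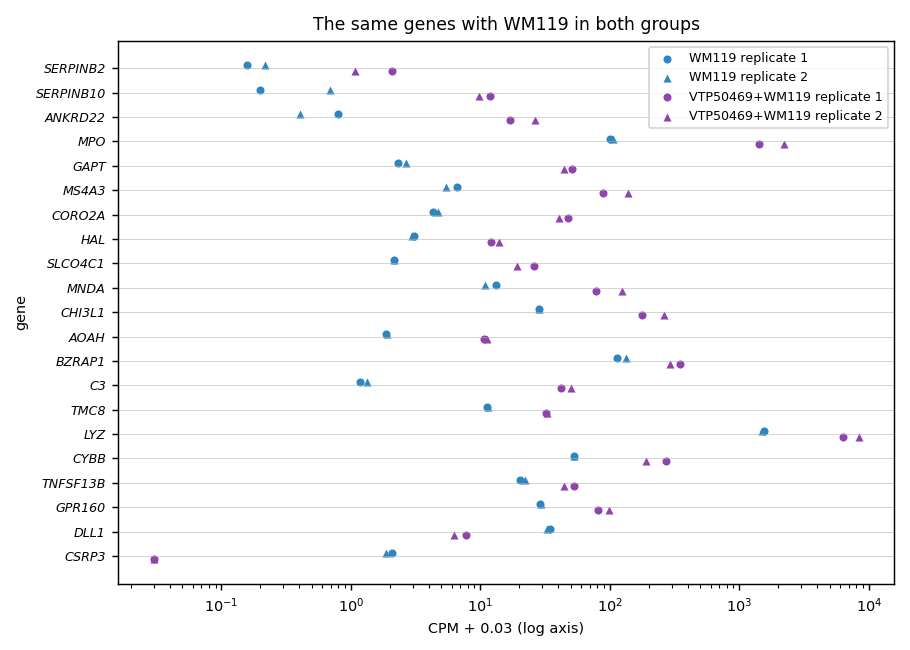
CPM (x axis, log scale, with 0.03 added) of the same 21 genes in the order of the plot for VTP50469 and DMSO, here in the 2 WM119 libraries and the 2 libraries of both compounds. The 19 genes lie to the right in both combination libraries, and DLL1 and CSRP3 to the left, with CSRP3 at 0 counts in the combination.

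PU.1 and the C/EBP factors are the chief activators of granulocyte and monocyte genes, so the promoters of the genes that rose were searched for their short motifs. RefSeq promoter sequences (GRCh38.p14) were at hand for 13 of the 21 genes, and all 13 are genes that rose. The letters GAGGAA (PU.1 core) were found on either strand within 250 bases before the start of 6 of the 13 (46.2%), and TTGCNNAA (C/EBP) in 4 (30.8%), against 23.4% and 9.13% of 27305 promoters. Only 13 promoters are counted, and a match is a description of letters, not of binding. Shown here are 3 genes that rose and were picked because they hold a match, and MEIS1, called lower in the 4-library fit. CHI3L1, CORO2A, SERPINB2 and SLCO4C1 also rose and hold neither motif. Most promoters lack both motifs, so their absence from MEIS1 alone sets no contrast. Promoters of lowered genes were not counted. Capitals mark the matches, and each sequence is printed along the gene's strand.
MNDA, chr1:158831101-158831350, plus strand: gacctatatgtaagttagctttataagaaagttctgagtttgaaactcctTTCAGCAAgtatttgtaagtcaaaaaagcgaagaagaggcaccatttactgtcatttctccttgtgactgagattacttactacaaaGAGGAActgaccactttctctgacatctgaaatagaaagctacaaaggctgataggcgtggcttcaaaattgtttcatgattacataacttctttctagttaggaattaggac
GAPT, chr5:58491185-58491434, plus strand: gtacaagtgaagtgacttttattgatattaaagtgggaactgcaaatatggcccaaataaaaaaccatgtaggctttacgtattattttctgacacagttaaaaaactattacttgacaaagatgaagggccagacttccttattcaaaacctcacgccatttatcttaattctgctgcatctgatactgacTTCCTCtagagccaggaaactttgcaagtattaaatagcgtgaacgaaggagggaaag
ANKRD22, chr10:88851845-88852094, minus strand: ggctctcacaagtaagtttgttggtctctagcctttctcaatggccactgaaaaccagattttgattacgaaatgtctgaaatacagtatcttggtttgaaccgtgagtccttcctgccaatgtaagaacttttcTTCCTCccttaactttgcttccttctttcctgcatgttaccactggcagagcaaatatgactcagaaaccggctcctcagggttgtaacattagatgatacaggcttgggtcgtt
MEIS1, chr2:66434875-66435124, plus strand: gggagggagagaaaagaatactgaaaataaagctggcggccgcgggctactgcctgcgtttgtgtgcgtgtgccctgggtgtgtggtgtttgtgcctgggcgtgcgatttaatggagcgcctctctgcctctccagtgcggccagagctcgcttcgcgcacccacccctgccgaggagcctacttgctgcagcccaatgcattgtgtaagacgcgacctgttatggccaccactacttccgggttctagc
MNDA holds both motifs, at 113 to 108 (PU.1 core) and 200 to 193 bases (C/EBP) before its start. GAPT and ANKRD22 hold the PU.1 core at 58 to 53 and 115 to 110 bases, and the MEIS1 window holds neither. That MEIS1 window lies inside the GENCODE gene, which starts at 66433452, so it comes before the RefSeq start only.

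Among 34 tested myeloid transcription factors 9 (26.5%) were called higher and 6 (17.6%) lower in the 4-library fit, beside 5.98% and 5.16% of all genes. In the 8-library fit 0 were called. CEBPE, which drives the late granule program, read 0.433, 0.569, 2.99 and 3.60 CPM (log2 2.70 ± 0.37 SE, 4-library edgeR adjusted p = 0.0013). NFE2 read 2.87, 2.56, 12.9 and 16.9 CPM (log2 2.47 ± 0.20 SE), and TFEC, of the MITF family, 4.06, 5.31, 18.1 and 19.1 CPM (log2 1.99 ± 0.16 SE). Other factors differed by less. CEBPD read 22.5, 22.6, 43.7 and 50.4 CPM (log2 1.07 ± 0.10 SE), while SPI1, which encodes PU.1, and CEBPA, both named after their values were seen, were called higher by log2 0.37 and 0.29. The 6 called lower were EGR1, BATF3, ID2, FOS, IRF8 and RUNX3, of which IRF8, a factor of monocytes and dendritic cells, went from 685 and 695 to 506 and 490 CPM. Without DMSO replicate 2 only 3 factors were called lower and 6 higher.

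The leukemia stem cell score LSC17 is a list of genes tied to stem cell activity in acute myeloid leukemia. Of 8 tested members 3 (CDK6, SOCS2 and EMP1) were called lower in the 4-library fit and 0 higher, beside 5.16% and 5.98% of all genes. SOCS2, a feedback inhibitor of STAT5 signalling, read 47.6, 48.6, 27.2 and 23.4 CPM (log2 -0.92 ± 0.10 SE, 4-library edgeR adjusted p = 0.000203, 8-library 0.084). EMP1 is less firm, since its DMSO libraries read 14.0 and 5.31 CPM and its VTP50469 libraries 3.68 and 1.76 CPM.

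MHC class I genes, which present peptides from inside the cell, were mostly higher, with 0 called in the 8-library fit. Of 16 tested members 10 (62.5%) were called higher in the 4-library fit and 0 lower, beside 5.98% and 5.16% of all genes. Both VTP50469 libraries lay above both DMSO libraries for 13, as for 27.3% of all genes. HLA-C read 515 and 537 CPM in DMSO and 857 and 989 CPM with VTP50469 (log2 0.82 ± 0.07 SE), and NLRC5, the transactivator of this pathway, 50.2, 46.5, 74.6 and 74.9 CPM (log2 0.63 ± 0.08 SE). The classical class I genes share sequence, so reads can be split between them. Without DMSO replicate 1 or DMSO replicate 2 the 4-library count was 6.

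MHC class II genes present peptides taken up from outside the cell. Of 10 tested members 3 were called higher and 0 lower in the 4-library fit, beside 5.98% and 5.16% of all genes. HLA-DRA read 6.55 and 6.26 CPM in DMSO and 11.8 and 10.8 CPM with VTP50469 (log2 0.82 ± 0.16 SE, 4-library edgeR adjusted p = 0.0075). HLA-DQB1 read 1.79, 1.66, 3.24 and 3.82 CPM and HLA-DOB was not called. CIITA, the master regulator of class II and named after its values were seen, had a log2 difference of 0.03. With either DMSO library left out 1 member was called.

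Type I interferon response genes gave few calls, all of them higher. Of 27 tested members 4 were called higher and 0 lower in the 4-library fit, and 14.8% higher stands beside the background of 5.98%. In both libraries 14 of 31 lay above and 9 below DMSO, where 27.3% and 27.6% of all genes did. XAF1 read 21.4, 23.7, 33.2 and 30.6 CPM (log2 0.50 ± 0.10 SE), with 38.3% of its exonic bases overlapped on the other strand. MX1 had 1 count in DMSO and 17 with VTP50469, and MX2 was not called in either fit. With either DMSO library left out 2 members were called.

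Cytokine genes called higher were 5 of 14 (35.7%), with 1 (7.14%) lower, beside 5.98% and 5.16% of all genes. CXCL8, the neutrophil chemoattractant, read 0.703 and 1.66 CPM in DMSO and 7.06 and 12.7 CPM with VTP50469 (log2 3.04 ± 0.38 SE, 4-library edgeR adjusted p = 0.000723, 8-library 0.0953). OSM, oncostatin M, was the one called lower, with 5.09, 4.55, 2.06 and 2.68 CPM (log2 -1.01 ± 0.26 SE). That call was lost without either DMSO library, without VTP50469 replicate 1 and with DESeq2. Among leukocyte integrins and adhesion molecules 7 of 19 (36.8%) were called higher and 2 (10.5%) lower. Neither lower call was kept without DMSO replicate 1 or without DMSO replicate 2, and 4 were called lower without VTP50469 replicate 1. ITGB2, the beta chain shared by the leukocyte integrins, read 352, 338, 529 and 554 CPM (log2 0.65 ± 0.06 SE), PECAM1 read 32.5, 29.5, 44.7 and 48.7 CPM, and ALCAM 59.0, 52.6, 81.5 and 88.4 CPM (log2 0.61 ± 0.09 SE).

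Signalling lists gave 1 to 3 calls in a direction, where any were made, from small numbers of members. In the Notch pathway DLL1 fell, JAG1, another ligand, was called lower (34.2, 33.2, 23.9 and 21.3 CPM) and the receptor NOTCH2, named after its values were seen, was called higher (49.4, 48.8, 91.0 and 84.6 CPM), out of 17 members tested in the 4-library fit. Along the STAT5 axis 1 of 15 was called higher and 2 (13.3%) lower, SOCS2 and OSM. Without either DMSO library 0 were called higher and 1 lower, and DESeq2 called 1 lower. STAT5A was not called. In MAPK feedback 3 of 17 (17.6%) were called lower, EGR1, DUSP4 and FOSL1, and 0 higher, beside the 5.16% of all genes called lower. DUSP4, a phosphatase of MAP kinases, read 12.01, 11.3, 7.21 and 4.57 CPM, while SPRY4 was not called. Without DMSO replicate 1 or VTP50469 replicate 2 the MAPK count was 1, as with DESeq2, and without VTP50469 replicate 1 it was 6. The Notch count of lower calls was 2 (11.8%), and 4 without VTP50469 replicate 1.

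Few proliferation genes were called. Of 46 tested S phase genes 0 were called higher and 1 lower (HELLS), and of 55 tested G2 and M phase genes 1 was called higher (LBR) and 2 lower (CBX5 and SMC4) in the 4-library fit. Those shares lie below the background of 5.98% higher and 5.16% lower. A replicate block gave 0 S phase genes higher and 5 lower, and 7 G2 and M phase genes higher and 3 lower. With that block 1047 of 11959 genes were called higher and 1053 lower. Of 78 cytoplasmic ribosomal protein genes 0 were called in either fit, and their median log2 change was 0.01. At an unadjusted p under 0.05 there were 0 in the 8-library fit and 2 in the 4-library fit, and DESeq2 called 0. The VTP50469 libraries differed from each other here, since without replicate 1 the fit called 29 ribosomal protein genes higher and without replicate 2 it called 28 lower. Among 38 genes of MYC and nucleolar biogenesis 0 were called higher and 3 (7.89%) lower (NIP7, UTP20 and POLR1B). Of the 38, 26 lay below DMSO in both libraries and 0 above, where 27.6% and 27.3% of all genes did. That list had a median log2 change of -0.11, and 0 of its members were called without DMSO replicate 1 but 8 without VTP50469 replicate 1. Without DMSO replicate 2 there was 1, and without VTP50469 replicate 2 there were 5.

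CDKN1A, the cell cycle inhibitor p21 and a p53 target, was called lower in the 4-library fit. It read 88.1 and 76.2 CPM in DMSO and 38.9 and 39.8 CPM with VTP50469 (log2 -1.06 ± 0.09 SE, 4-library edgeR adjusted p = 6.3e-05, 8-library 0.0738). Of 24 tested p53 targets 3 were called lower (CDKN1A, SESN1 and TNFRSF10B) and 1 higher (PLK2), and without either DMSO library 1 was called lower. In the list of D cyclins, CDK4/6 and CDK inhibitors 3 of 15 were called lower (CDKN1A, CDK6 and RB1) and 1 higher (CCND3), and CCND1 was not called. In the BCL2 family BMF and BIK were called higher and BCL2L11, all 3 of them BH3-only genes that promote cell death, lower, out of 16. BCL2L11 read 84.5, 83.4, 60.5 and 56.8 CPM (log2 -0.51 ± 0.08 SE). Over all genes of the 4-library fit 5.98% were called higher and 5.16% lower. The p53 targets called higher (4.17%), the cyclin list called higher (6.67%) and the BCL2 family called lower (6.25%) lay near those shares. The p53 targets called lower and the BCL2 family called higher came to 12.5% each. The lower calls of the cyclin list, 3 of 15, also stood above 5.16%. Without either DMSO library 1 of the BCL2 family was called higher, and the higher call of CCND3 was lost.

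Lysosomal genes were the metabolic group with the most calls. Of 39 tested members 18 (46.2%) were called higher and 1 lower in the 4-library fit, beside 5.98% and 5.16% of all genes. Above DMSO in both libraries lay 31, where 27.3% of all genes did. GRN, progranulin, read 162 and 174 CPM in DMSO and 319 and 337 CPM with VTP50469 (log2 0.97 ± 0.07 SE, 4-library edgeR adjusted p = 1.5e-05). GLA, alpha-galactosidase, read 33.7, 33.6, 45.8 and 50.03 CPM (log2 0.51 ± 0.09 SE), and CTSL, cathepsin L, was the one called lower, with 23.9, 21.4, 12.2 and 11.4 CPM. The median log2 change of the list was 0.35. Without DMSO replicate 1 the count was 7 and without DMSO replicate 2 it was 12, whereas DESeq2 gave 15.

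ATF4 targets and genes of amino acid supply leaned down in the 4-library fit. There 8 of 29 (27.6%) were called lower and 0 higher, beside 5.16% and 5.98% of all genes. DDIT4, an inhibitor of mTORC1, read 114 and 95.1 CPM in DMSO and 51.9 and 51.0 CPM with VTP50469 (log2 -1.01 ± 0.09 SE, 4-library edgeR adjusted p = 7.9e-05). STC2 read 20.7, 18.5, 12.5 and 9.58 CPM and CHAC1 6.82, 4.22, 1.91 and 2.81 CPM. ATF4 itself, named after its values were seen, differed by log2 -0.07. Without DMSO replicate 1 the count was 2, and without DMSO replicate 2 it was 5.

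The remaining metabolic and stress lists had few calls, and single libraries moved most of these counts. Cholesterol synthesis had 2 of 24 members (8.33%) called lower, CYP51A1 and INSIG1 (125, 128, 91.6 and 95.1 CPM), and 0 higher. The shares over all genes were 5.16% lower and 5.98% higher. With either DMSO library left out, or with DESeq2, 1 was called lower, and without VTP50469 replicate 1 there were 4. In cholesterol and lipid efflux ABCA1, a cholesterol exporter, was called higher (2.98, 2.70, 6.03 and 5.75 CPM) and the lipid droplet gene PLIN2 lower (32.8, 38.9, 26.5 and 24.9 CPM), out of 10, and both calls were lost without DMSO replicate 2. Of 28 genes of glycolysis and the pentose phosphate pathway 3 (10.7%) were called higher and 1 lower (ALDOC, 9.47, 9.20, 5.30 and 4.61 CPM). Without either DMSO library none of the higher calls was left, and without VTP50469 replicate 1 there were 8. In the immediate early and heat shock list 1 of 25 was called higher (JUN) and 3 (12%) lower (FOS, EGR1 and HSPB1). Without DMSO replicate 2 there were 0 higher and 1 lower, and without VTP50469 replicate 1 there were 6 lower, while FOS read 45.1, 46.3, 33.5 and 28.7 CPM.

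**Figure D5:**
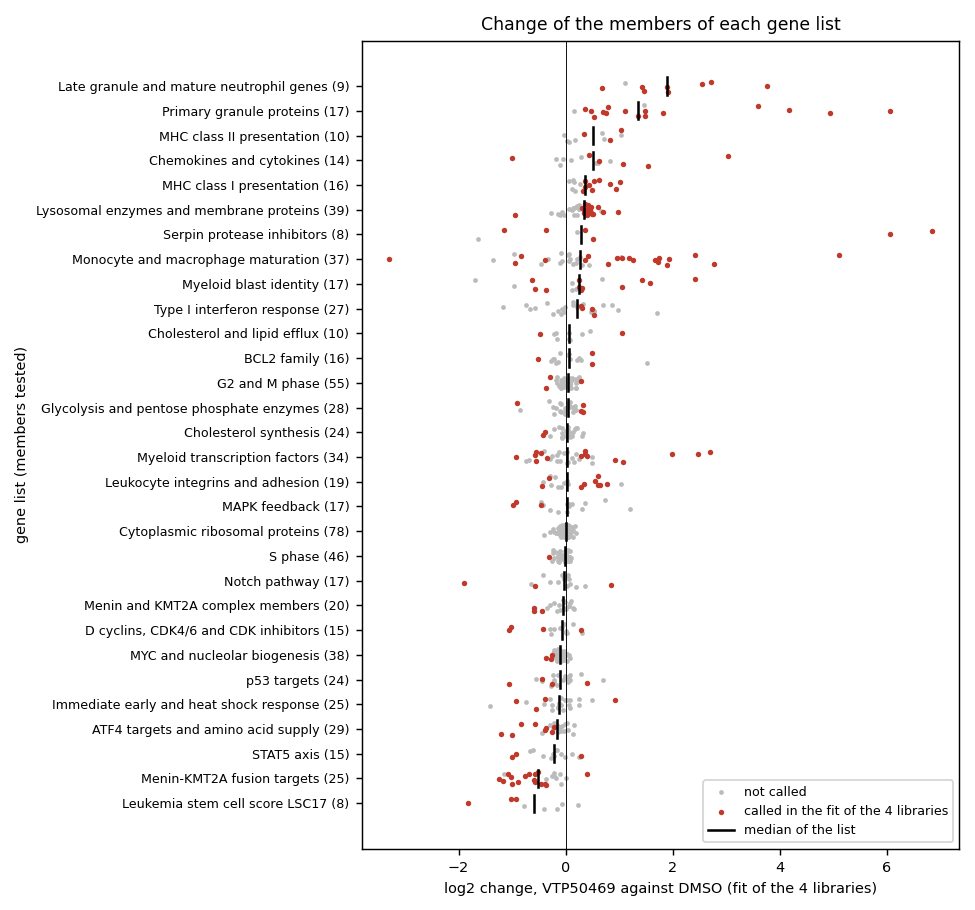
Log2 change, VTP50469 against DMSO (x axis), of the members of 30 gene lists with at least 8 tested members (y axis), from the 4-library fit; red points were called, grey points were not, and black bars are medians. Primary and late granule genes sit to the right of 0 and fusion targets to the left, while ribosomal, S phase and G2 and M phase genes gather at 0.

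Genes of the myeloid lineage were read in both groups. CD33 had 52.1, 51.8, 63.4 and 65.1 CPM, PTPRC (CD45) 94.1, 96.2, 106 and 99.9 CPM and CSF2RA 23.5, 21.6, 25.4 and 23.5 CPM. These levels do not tell blasts from more mature myeloid cells. Of the other genes chosen for line identity, FLT3 (253, 232, 174 and 151 CPM) and MEIS1 (32.8, 28.9, 14.1 and 14.9 CPM) were called lower in the 4-library fit. HOXA9 lay lower too (66.2, 66.3, 55.6 and 57.6 CPM) but was not called, and SPI1 was called higher. Of 17 tested blast identity genes 8 (47.1%) were called higher and 3 (17.6%) lower in the 4-library fit, beside 5.98% and 5.16% of all genes. CD244, a receptor of natural killer and myeloid cells, read 4.71, 4.22, 13.5 and 13.0 CPM, and CLEC12A 0.758, 0.901, 3.97 and 4.96 CPM. The other 2 calls downward beside FLT3 were IL3RA and CD4. Without either DMSO library 4 were called higher.

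Markers of other cells gave little signal. The T and NK list summed to 91.5, 83.4, 92.9 and 82.8 CPM with 5 of 18 members at 0, and the B and plasma cell list to 3.19, 3.41, 1.72 and 1.10 CPM with 7 of 16 at 0. The erythroid sum of 558, 538, 521 and 508 CPM came almost wholly from the transferrin receptor TFRC, with 12 of 15 members at 0, HBA2 among them. The megakaryocyte list summed to 5.18 to 7.21 CPM, the mast cell, basophil and eosinophil list to 11.9 to 13.0 CPM and the epithelial, stromal and HEK293 list to 2.87 to 4.52 CPM. The dendritic sum of 325, 295, 227 and 199 CPM was mostly FLT3. Across these 7 lists the 4-library fit called 0 genes higher and 3 lower, FCRLA, FLT3 and IL3RA, the last 2 being genes of the blasts too.

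The most extreme folds of the 4-library fit include names whose reads cannot be assigned with certainty. GTF2IP4, a pseudogene copy of GTF2I, had 0 counts in DMSO and 2807 with VTP50469 (at least 858-fold higher, taking 3 counts as the most that DMSO could hold), yet 12.9 and 0 CPM in the combination. The readthrough names CHURC1-FNTB, RNASEK-C17orf49 and LY75-CD302, the histone copy HIST1H4K and the receptor copies KLRC2 and KLRK1 share sequence with neighbours or paralogs. PGM5P3-AS1 had 40 counts in DMSO and 0 with VTP50469, at least 14.5-fold lower. Of the genes without such a limit, TTC28 read 16.5, 15.4, 2.31 and 2.11 CPM (log2 -2.85 ± 0.17 SE, 4-library edgeR adjusted p = 7.5e-06). SULF2, a sulfatase of heparan sulfate, read 1.08, 1.19, 0.0981 and 0.132 CPM and was called lower too, as was SRPK3, 30.2% of which is overlapped by PLXNB3.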

How the data were processed

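RNA of MOLM-13 cells was sequenced as 150 bp paired-end reads. The authors used STAR 2.5.1b and the hg38 build, and deposited a table of expected counts for 26475 gene symbols, of which 11.4% to 16.6% of the values above 0 per library were not whole. The counting tool, its strand setting and its annotation were not given in the sources used here. Counts were rounded, genes were kept with filterByExpr, libraries were scaled with TMM, and edgeR 4.0.16 (R 4.3.3, limma 3.58.1) fitted quasi-likelihood F tests over the 4 groups of 8 libraries (main) and over the 4 VTP50469 and DMSO libraries, with Benjamini-Hochberg adjustment at 0.05. The edgeR steps were tested on simulated data. Genes named were those called over 8 libraries, the 10 largest changes each way over 4 libraries with separated groups and at least 1 CPM, the 3 lowest p-values of each list, and fixed genes of the Menin pathway and of myeloid maturation. Other genes were named after their values were seen. The comparison, lists and tests were chosen with earlier results of these data known. GENCODE v44 gave positions for 22923 symbols directly and 1359 through older symbols, with 2193 unmatched. Counting intervals (95%) and floors (3 counts) cover counting error only. Alternatives were DESeq2 1.42.0, other scalings and filters, a replicate block, a transcript length offset, a robust fit, and each library left out. Some single-gene results are not reported here.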

Additional observations from a re-analysis of the deposited data

How the results depend on the processing

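The 8-library counts (19 higher, 2 lower) moved most. DESeq2 gave 131 higher and 73 lower, no count filter 43 and 7, the transcript length offset 59 and 19, and the 6 libraries without the combination 251 and 164. At least 10 counts in every library gave 18 and 1. Leaving out 1 library gave 0 to 257 higher and 0 to 164 lower: 0 without any DMSO, VTP50469 or WM119 library, and 252 or 257 higher without combination replicate 1 or 2. The 4-library counts (715 higher, 617 lower) became 527 and 449 with DESeq2 and 1023 and 967 without a filter, and 369 to 1264 higher and 272 to 1286 lower with 1 library left out. An arm left with 1 library was assumed to vary like the others. Replicate numbers are shared across groups, but deviations of same-numbered DMSO and VTP50469 libraries hardly correlated (0.0196), so the numbers were not taken as pairing. A replicate block gave 14 higher and 1 lower over 8 libraries and 1047 and 1053 over 4. Small log2 changes turned sign. MYB came to -0.0018 with DESeq2, -0.0026 with RLE factors and -0.00057 with library size only, and with 1 library left out it ran from -0.03 to 0.03, MLLT3 from -0.0094 to 0.19, CD14 from -0.63 to 0.77, GP1BA from -0.43 to 0.28 and CD2 from -3.33 to 0.0. Of the other values 2619 were held the same, which for a gene means direction and side of the threshold. For a count of list members it means only a count near the main one. A further 205 lost a call or fell in count, and 330 gained a call or rose in count. The cause was not tested. With 2 libraries a group and 1 count worth 0.0439 to 0.0541 CPM, genes with few counts, CD14 among them, were not resolved.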

Other observations

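Genes outside the lists above, named after their values were seen, included clear changes of secreted and surface proteins in the 4-library fit. ENPP2, which makes lysophosphatidic acid, read 64.3 and 56.3 CPM in DMSO and 16 and 13.1 CPM with VTP50469 (log2 -2.05 ± 0.12 SE, edgeR adjusted p = 6.03e-06). SLPI, an inhibitor of neutrophil elastase, read 2.54, 2.51, 18 and 27.2 CPM (log2 3.16 ± 0.22 SE). ANGPT1 and AXL were called lower, with log2 differences of -2.12 and -2.36. The myeloid signalling genes FGR, PRAM1 and FYB were called higher, with log2 differences of 2.21, 2.62 and 2.40. None of these was called in the 8-library fit, where FYB had an edgeR adjusted p of 0.0555 and FGR one of 0.0624.

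The study's own gene programs, which it derived from a single-cell perturbation screen and not from these libraries, can be counted in the same way. That screen was also in MOLM-13 and had MEN1 among its targets, so the programs already draw on loss of Menin. The study itself reports enrichment of its myeloid program with VTP50469 alone, less pronounced than with both compounds. In its myeloid program (P-15) 64 of 330 tested genes (19.4%) were called higher and 16 (4.85%) lower in the 4-library fit, where 5.98% and 5.16% of all genes were. The numbers called in P-15 moved when 1 library was left out, and so did the numbers called over all genes. Program P-14 had 26 of 68 (38.2%) called higher, and P-0 had 38 of 155 (24.5%) called lower.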
